A study of Mus musculus with 3 samples.

Results

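The 8 genes described here, Irf1, Irf2, Irf3, Irf4, Irf5, Irf7, Irf8 and Irf9, belong to the interferon regulatory factor (IRF) family of transcription factors. They were taken by gene symbol from a fixed list. The rule itself used no measured values, but the list was chosen with earlier results of these data known. All 8 were found among the 55536 annotated genes and, as 70 of 141767 transcripts, in the transcript tables. RNA was sequenced from the chromatin fraction of primary macrophages grown from C57BL/6J mouse bone marrow, as total RNA depleted of ribosomal RNA. Before fractionation the cells received Lipid A, the TLR4-binding moiety of bacterial lipopolysaccharide, at 100 ng/ml for a period of 10 min. There was 1 group of 3 libraries, biological replicates 1, 2 and 3, made from 1 µg, 250 ng and 500 ng of RNA. The labels record neither sex nor age and list a single donor for the 3 libraries, whose spread may thus be technical, and the starting amount and the replicate cannot be told apart. With no untreated group analysed here, a level does not show whether a gene was induced.

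IRF proteins share an N-terminal DNA-binding domain that recognises GAAA repeats, the core of the interferon-stimulated response element (ISRE) found in promoters of type I interferon and antiviral genes. In macrophages, TLR4 signals through the adaptors MyD88 and TRIF to kinases that phosphorylate Irf3, Irf5 and Irf7, which then enter the nucleus, so that the first steps of the response need no new IRF protein. Irf9 joins Stat2 in the complex that answers secreted interferon, Irf1 and Irf2 compete for the same sites as activator and attenuator, and Irf8 and Irf4 bind DNA with the lineage factor PU.1 (encoded by Spi1).

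The promoters of the genes differed in the signalling motifs they hold. RefSeq promoter windows of GRCm38.p6, with 250 bases before and 50 after a start, were available for all 8 genes, as 11 windows. They were searched on both strands for the ISRE core GAAANNGAA, for the STAT site TTCNNNGAA (GAS) and for the NF-kB consensus, which occurred in 8.56%, 8.3% and 8.46% of 32851 promoters of the same length. A match is a run of letters, not a shown binding site. The 250 bases upstream of Irf1 (chr11:53769764-53770013, plus strand), Irf2 (chr8:46739495-46739744, plus strand) and Irf8 (chr8:120736108-120736357, plus strand) are printed because these were the only member windows with a match, given in capitals.
Irf1 upstream: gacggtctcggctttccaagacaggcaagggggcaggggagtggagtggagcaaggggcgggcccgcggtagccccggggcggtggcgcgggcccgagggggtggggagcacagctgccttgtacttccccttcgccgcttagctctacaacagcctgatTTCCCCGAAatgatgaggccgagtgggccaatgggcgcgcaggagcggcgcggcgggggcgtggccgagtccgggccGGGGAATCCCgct
Irf2 upstream: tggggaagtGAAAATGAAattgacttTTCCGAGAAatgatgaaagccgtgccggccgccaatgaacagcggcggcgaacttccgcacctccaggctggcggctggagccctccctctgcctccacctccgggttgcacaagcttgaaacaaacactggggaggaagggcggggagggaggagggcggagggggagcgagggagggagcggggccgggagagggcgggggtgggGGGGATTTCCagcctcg
Irf8 upstream: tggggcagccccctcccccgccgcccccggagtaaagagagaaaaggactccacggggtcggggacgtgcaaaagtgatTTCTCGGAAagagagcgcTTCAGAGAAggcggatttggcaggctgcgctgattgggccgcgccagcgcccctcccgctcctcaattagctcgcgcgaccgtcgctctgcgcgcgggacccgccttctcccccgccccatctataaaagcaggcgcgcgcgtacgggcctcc

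In the Irf1 window a GAS match lay at bases -90 to -82 and an NF-kB match at -13 to -4, counted from the base before the start as -1. The Irf2 window held all 3 motifs, an ISRE core at -241 to -233, a GAS match at -224 to -216 and an NF-kB match at -17 to -8. The Irf8 window held a pair of GAS matches, at -171 to -163 and at -153 to -145. The windows of Irf3, Irf4, Irf5, Irf7 and Irf9 held no match, nor did the additional windows of Irf1 and Irf8 at their other starts. The motifs did not overlap each other in any of the 3 printed windows.

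Short introns inside transcripts annotated as retained_intron are the other sequence that the results turn on. The Irf7 intron 5 is the shortest of the gene's 9 introns, at 69 bases (mm10 chr7:141264656-141264724, minus strand), and it is the one intron kept whole in the Irf7 transcript with the highest TPM. Intron 5 of Irf3 (chr7:45000547-45000644, plus strand) and intron 6 of Irf9 (chr14:55606439-55606536, plus strand), both 98 bases, lie whole in retained-intron transcripts of their genes. Introns are numbered along the protein-coding transcript with the longest coding sequence, and capitals mark the first and last 2 bases, GT and AG in each.
Irf7 intron 5: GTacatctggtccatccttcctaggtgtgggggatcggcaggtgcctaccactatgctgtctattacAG
Irf3 intron 5: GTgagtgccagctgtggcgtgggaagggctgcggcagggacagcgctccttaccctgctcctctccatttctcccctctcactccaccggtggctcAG
Irf9 intron 6: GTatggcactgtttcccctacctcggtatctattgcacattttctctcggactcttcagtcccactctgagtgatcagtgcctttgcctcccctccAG

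The libraries held between 14386725 and 16005795 estimated counts on annotated genes, and the 8 IRF genes together took 13625, 13353 and 10692 of them, or 0.0868%, 0.0834% and 0.0743%, in replicates 1, 2 and 3. All 6 macrophage markers examined were detected, meaning a TPM (transcript abundance normalized for length and for the library's total) of 1 or more in all 3 libraries. Of 22 markers of B, plasma, T, dendritic and neutrophil cells, 2 were detected and 7 were at 0 in every library. Those 2 were Zbtb46 at 1.43 ± 0.367 TPM and Tcf4 at 114 ± 30.9 TPM (SD, n = 3, as for every ± value below). Tcf4 is not restricted to plasmacytoid dendritic cells, whose defining markers Siglech and Ly6d were at 0.24 ± 0.07 TPM and at 0. The summed TPM of the 5 B cell markers was at most 0.4 and that of the 4 T cell markers at most 0.05 in any library. The second transcript table gave higher sums, of 1.25 to 1.94 TPM for the B cell and 4.09 to 18.7 TPM for the T cell markers, the T cell sum mostly from Cd3d at 3.67, 13.2 and 17.2 TPM in replicates 1, 2 and 3. There 5 of the 22 markers were detected, with Cd3d, Siglech at 2.34 TPM and Jchain at 1.81 TPM added.

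Chromatin-associated RNA was detected for 7 of the 8 genes, all but Irf4, beside 24.4% of all annotated genes. Those annotated genes include non-coding types, and the share among protein-coding genes alone was not computed. The median TPM of the 8 was 77.1, 40.8 and 38.7 in replicates 1, 2 and 3 (52.2 ± 21.6), against 14.0, 11.4 and 9.65 for the 10120 detected protein-coding genes (11.7 ± 2.17). The same median was 52.3 ± 17.4 for the 7 STAT genes and 14.7 ± 3.73 for the 5 Rel (NF-kB) genes. TPM was highest in replicate 1 and lowest in replicate 3 for 8 of 8 IRF genes, as it was for 59.9% of detected protein-coding genes. For differences between libraries, counts scaled by TMM, a between-library normalization, are therefore given beside the TPM.

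**Figure D1:**
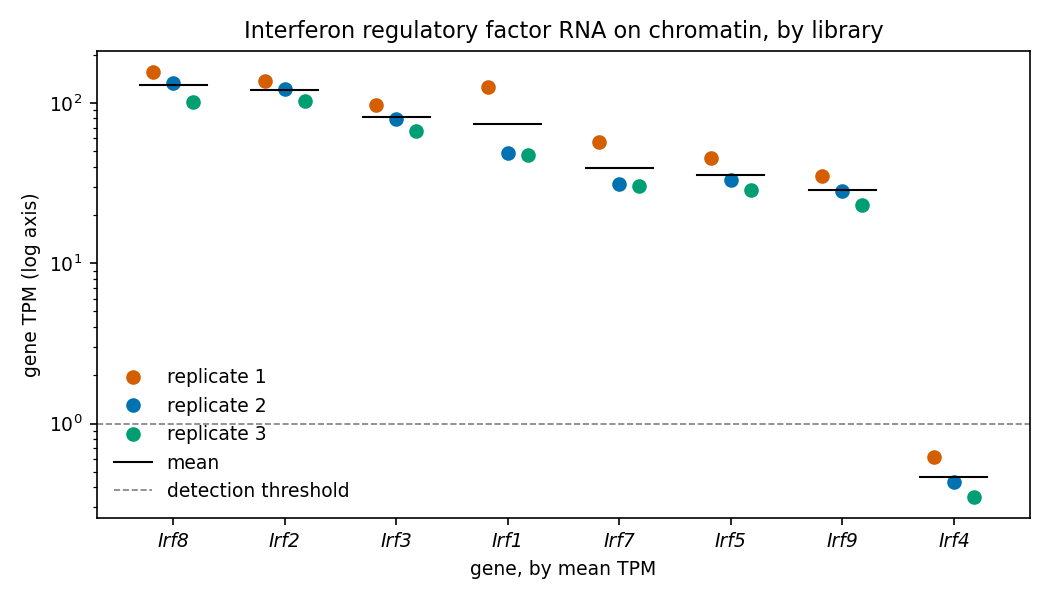
Gene TPM (log axis) of the 8 IRF genes in replicates 1, 2 and 3, with the mean as a line and the detection threshold of 1 TPM as a dashed line. Irf8 and Irf2 lead with means of 130 and 121 TPM, Irf4 is below the threshold in every library, and Irf1 and Irf7 have replicate 1 apart from the others.

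Irf8, required for monocyte and macrophage development (ENSMUSG00000041515.10, mm10 chr8:120736358-120756694, plus strand, 7 transcripts), had the highest level. It stood at 156, 133 and 102 TPM in replicates 1, 2 and 3 (130 ± 26.9), at the 97.3 percentile of detected protein-coding genes. Its scaled CPM, counts divided by library size after TMM scaling, were 306, 328 and 302, so the libraries differed little once scaled. The SD of its log2 scaled CPM was 0.06, lower than that of all but 7.25% of genes with a mean of 10 or more counts. Gm20388, annotated on the same strand across the whole of Irf8, held 142, 47 and 101 counts with read-assignment SDs of 84.95, 62.16 and 70.3, while the assignment SD of Irf8 itself was 0 in all 3 libraries.

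Irf4 (ENSMUSG00000021356.10, chr13:30749226-30766976, plus strand, 3 transcripts), the closest relative of Irf8 and known for roles in plasma cells and alternatively activated macrophages, stood at the other end. Its TPM was 0.62, 0.43 and 0.35, from 40, 35 and 27 counts, with exact Poisson 95% intervals of 28.6 to 54.5, 24.4 to 48.7 and 17.8 to 39.3 that cover counting error only. Those counts are above the 3 counts that a count of 0 would allow, so Irf4 RNA was present at a low level in every library, and the intervals overlap. In such bulk RNA, fewer cells that express a gene and less of its RNA per cell cannot be told apart. The summed level of the 2 plasma cell markers was 0.57, 0.62 and 0.08 TPM, and whether other cells contribute to the Irf4 counts was not tested.

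Irf2, the attenuator of the family (ENSMUSG00000031627.9, chr8:46739732-46847458, plus strand, 11 transcripts), had 138, 122 and 103 TPM in replicates 1, 2 and 3 (121 ± 17.7). In scaled CPM the libraries ran the other way, with 127, 147 and 159. Irf1, its activating counterpart and an early interferon gamma target (ENSMUSG00000018899.16, chr11:53770014-53778374, plus strand, 10 transcripts), had 125, 48.6 and 47.1 TPM (73.7 ± 44.7, a coefficient of variation of 60.7%). Replicate 1 stood apart, the other libraries were close together, and no library lay near the mean. The same held in scaled CPM at a smaller size, with 119, 62.2 and 74.5, and the effective length used for its TPM was 1040 bases in replicate 1, against 1231 and 1247 in replicates 2 and 3.

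Irf3, the constitutively made factor that TBK1 activates (ENSMUSG00000003184.15, chr7:44997648-45002848, plus strand, 13 transcripts), had 97.2, 79.8 and 66.5 TPM in replicates 1, 2 and 3 (81.2 ± 15.4) and 69.0, 52.9 and 58.7 scaled CPM. Irf7, the interferon-inducible factor that amplifies type I interferon production (ENSMUSG00000025498.15, chr7:141262706-141266481, minus strand, 13 transcripts), had 57.0, 31.4 and 30.2 TPM (39.5 ± 15.1) and 102, 59.7 and 61.1 scaled CPM. As for Irf1, replicate 1 was well above the other libraries, which were nearly equal. Irf5, which acts with MyD88 on inflammatory cytokine genes (ENSMUSG00000029771.12, chr6:29526625-29541871, plus strand, 6 transcripts), had 45.3, 32.9 and 28.7 TPM (35.7 ± 8.64) and 82.6, 67.3 and 71.0 scaled CPM. Irf9, the DNA-binding partner of Stat2 (ENSMUSG00000002325.15, chr14:55603571-55610030, plus strand, 7 transcripts), had 34.9, 28.4 and 23.0 TPM (28.8 ± 5.95) and 69.2, 58.0 and 61.8 scaled CPM. It was the lowest of the 7 detected genes in TPM in all 3 libraries, and still at the 76.6 percentile of detected protein-coding genes.

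The order of the genes by mean TPM was Irf8, Irf2, Irf3, Irf1, Irf7, Irf5, Irf9 and Irf4. The place of Irf3 depends on the measure. In scaled CPM it was the lowest of the 7 detected genes in each library, though close to Irf9 in replicate 1 (69.0 against 69.2). The effective length behind its TPM was 777, 637 and 696 bases, against 1967, 1825 and 1596 for Irf7. By mean TPM of the second table, Irf3 (70.0) was below Irf5 (112) but above Irf7 (28.5) and Irf9 (24.4). A pair of neighbours was taken as apart where the difference in log2(TPM + 1) had 1 sign in 3 of 3 libraries and a mean larger than its SD, which held for 4 of 7 pairs. Because the order came from these same 3 libraries, it favoured a positive difference in every pair. Irf2 exceeded Irf3 by 0.57 ± 0.06, Irf1 exceeded Irf7 by 0.79 ± 0.29, Irf5 exceeded Irf9 by 0.29 ± 0.08 and Irf9 exceeded Irf4 by 4.33 ± 0.16. The size of the Irf9 and Irf4 difference depends on the 1 added to the TPM. With 0.1 added instead, it was 5.68. Irf8 and Irf2 differed by 0.10 ± 0.09, Irf3 and Irf1 by 0.28 ± 0.56, and Irf7 and Irf5 by 0.11 ± 0.20, each with 1 library of the opposite sign. For Irf3 and Irf1 that library was replicate 1, where Irf1 was the higher. The 2-sided exact sign-flip permutation test cannot go below p = 0.25 with 3 libraries, and it gave 0.25 for the 4 pairs and 0.5 for the others (Benjamini-Hochberg adjusted 0.4375 and 0.5 over 7 pairs), so no neighbour difference could pass a 0.05 threshold by this test. On the second transcript table and on CPM, which is not normalized for length, Irf8 exceeded Irf2 in 3 of 3 libraries, by 0.33 ± 0.14 and 1.11 ± 0.17. The difference of Irf1 over Irf7 became 1.64 ± 0.44 and 0.19 ± 0.11, that of Irf2 over Irf3 1.20 ± 0.08 and 1.25 ± 0.33, and that of Irf5 over Irf9 2.13 ± 0.21 and 0.22 ± 0.03.

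Differences between libraries were concentrated on Irf1 and Irf7. Each library was set against the mean of the other libraries in scaled CPM, with 15877 genes of at least 10 mean counts as background and 1.5-fold as the size that counts as past, and with 1 library on one side there is no test. In replicate 1, Irf1 was higher by 0.80 and Irf7 by 0.76 on the log2 scale, 2 of 8 genes past 1.5-fold where 4.83% of all genes were, and 0 of 8 were lower by that size (6.33% of all genes). In replicate 2, Irf1 was lower by a log2 ratio of -0.63, 1 of 8 genes (3.4% of all genes), and 0 of 8 were higher (5.05%). In replicate 3, 0 of 8 genes were past 1.5-fold in either direction, beside 1.97% of all genes higher and 5.18% lower.

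The other 6 genes stayed within a log2 ratio of 0.30 of zero in every library. The median ratio of the 8 genes was 0.27, -0.18 and -0.07 in replicates 1, 2 and 3, where that of all genes was 0.00, -0.02 and 0.00. The STAT and Rel genes leaned alike, with medians of 0.34, -0.37 and 0.01 for the STAT genes and 0.38, -0.33 and 0.05 for the Rel genes. Against single libraries, Irf1 in replicate 1 was above replicate 2 by 0.93 and above replicate 3 by 0.67, and Irf7 by 0.77 and 0.74. Irf2 was below in replicate 1, by a log2 difference of -0.21 to replicate 2 and -0.32 to replicate 3. The SD of log2 scaled CPM was 0.48 for Irf1 and 0.44 for Irf7, at the 92.5 and 90.0 percentile of genes, and between 0.06 and 0.19 for the other 6, with a median of 0.17 over the 8 genes against 0.20 over all genes.

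**Figure D2:**
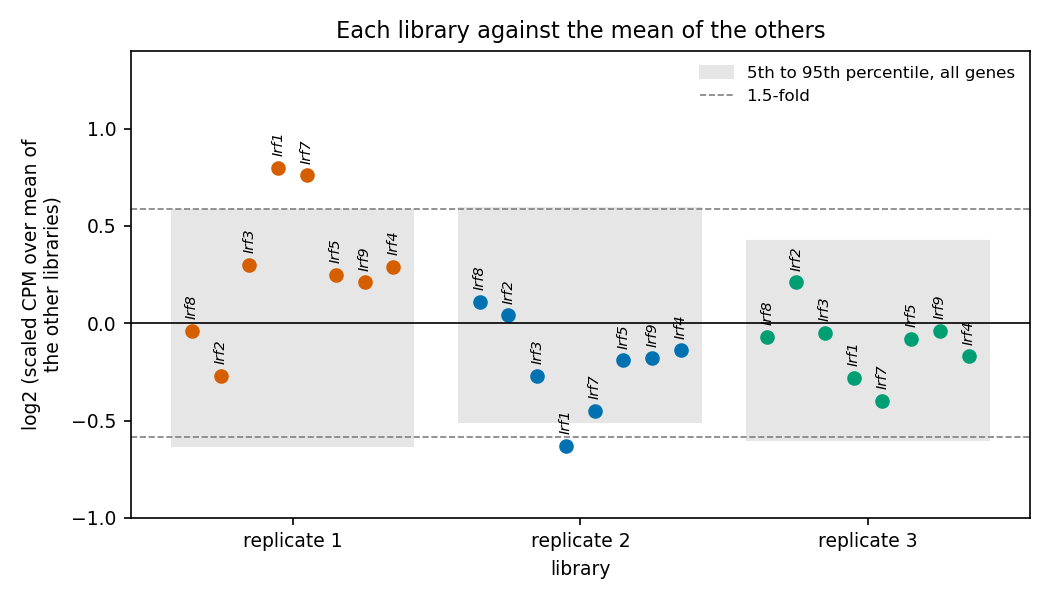
Log2 ratio of each library to the mean of the other libraries in TMM-scaled CPM for the 8 IRF genes, with the range from the 5th to the 95th percentile of all genes in grey and 1.5-fold as dashed lines. Irf1 (0.80) and Irf7 (0.76) lie above the grey range in replicate 1 and Irf1 (-0.63) lies below it in replicate 2, while all other points lie inside it.

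The Irf1 difference was present in both its coding and its retained-intron transcripts. Summed over its protein-coding transcripts, Irf1 had 95.3, 54.3 and 66.5 scaled CPM in replicates 1, 2 and 3. Replicate 1 was thus above the mean of the others by 0.65 on the log2 scale. Its single retained-intron transcript, Irf1-210, which starts inside intron 3, had 23.5, 7.65 and 7.57 scaled CPM from 365, 132 and 102 counts, with replicate 1 higher by 1.57 on that scale. Gm17334, a gene on the opposite strand whose 907 bases lie inside Irf1, moved alike, with 46.2, 16.4 and 11.2 TPM. Its exon overlaps Irf1-210 by 35 bases and 7 of the other Irf1 transcripts by 100 bases. The read-assignment SD of both genes was 0 in all 3 libraries, so the counting left no read open between them. No source used here states whether counting used strand, and whether reads counted to Gm17334 came from Irf1 RNA was not tested.

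For Irf7 the coding and retained-intron transcripts differed between libraries to a similar degree. Scaled CPM was 21.9, 13.3 and 13.8 for the coding transcripts and 80.5, 46.3 and 47.3 for the retained-intron transcripts. Replicate 1 exceeded the mean of the others by 0.67 and 0.78 on the log2 scale. Irf2 showed a split between its types. Its coding transcripts had 45.7, 35.5 and 40.1 scaled CPM, highest in replicate 1, while its retained-intron transcripts had 75.8, 104 and 107, lowest in replicate 1. The macrophage markers were also higher in replicate 1, all 6 of 6, with a median log2 ratio of 0.51, and their part in the Irf1 and Irf7 differences was not tested.

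**Figure D3:**
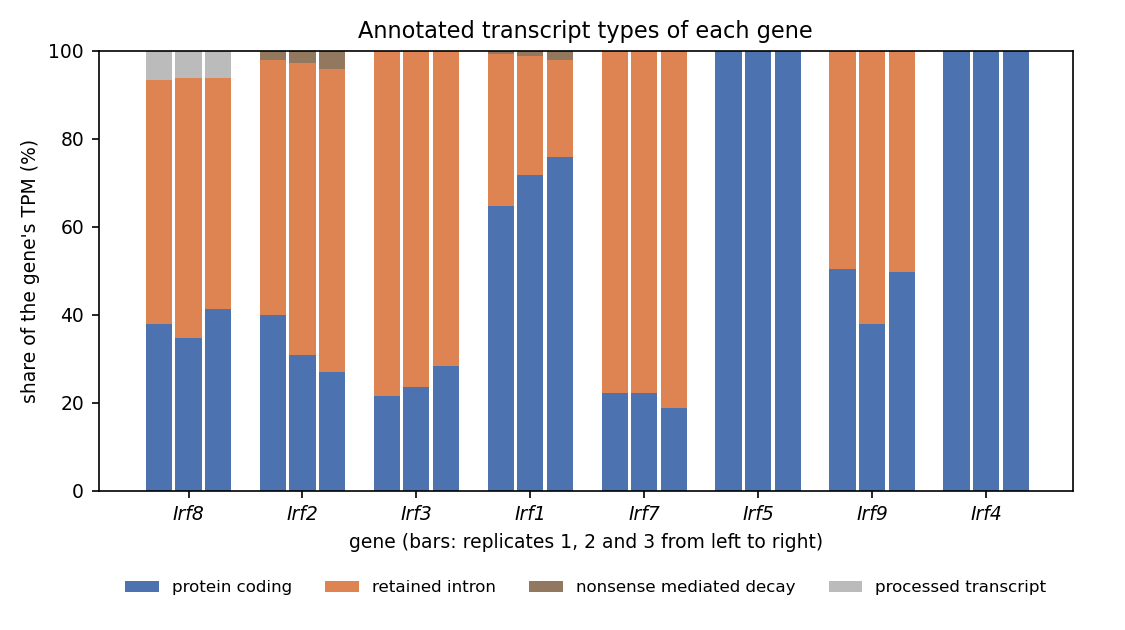
Share of each gene's TPM (%) in its annotated transcript types, for replicates 1, 2 and 3 from left to right within each gene, in the order of mean TPM. Retained-intron transcripts take at least 71.6% of Irf7 and Irf3 in every library, between 22.1% and 34.6% of Irf1, and nothing of Irf5 and Irf4, which have no such annotated transcript.

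Much of the chromatin-associated IRF RNA was assigned to transcripts annotated with a retained intron, that is, with sequence that the spliced coding mRNA lacks. The transcript with the highest mean TPM was not protein coding in 6 of 8 genes, all but Irf5 and Irf4, where 36.3% of detected protein-coding genes were led in this way, and in all 6 it was a retained-intron transcript. Irf4 has only protein-coding transcripts annotated, so it could not be led in this way. The background genes were not matched to the IRF genes for the number or type of annotated transcripts. The second transcript table gave 4 of 8 genes, with Irf2 and Irf1 led by a coding transcript, which is near the 49.2% of detected protein-coding genes led in this way in that table. Ranking by estimated counts gave 5 of 8, with Irf1 led by a coding transcript, beside 23.5% of those genes. A retained-intron share over 50% of TPM in all 3 libraries was found for 4 of the 6 genes with such a transcript, beside 34.0% of 6418 detected protein-coding genes with one. The median share over the 6 genes was 60.6 ± 3.68%, against 46.6 ± 2.33% over those 6418 genes, and it was 52.1 ± 2.5% over 4 STAT genes and 28.1 ± 4.54% over 4 Rel genes.

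Irf7 had the highest share, with 77.8%, 77.9% and 81.3% of its TPM in replicates 1, 2 and 3 (79.0 ± 1.96%). Irf3 followed with 78.6%, 76.5% and 71.6% (75.6 ± 3.61%), a range that overlapped that of Irf7 and lay above those of the other genes. Irf2 had 58.1%, 66.3% and 68.9% (64.4 ± 5.6%). Irf8 had 55.6%, 58.9% and 52.5% (55.6 ± 3.2%) and Irf9 had 49.7%, 62.2% and 50.3% (54.1 ± 7.04%), and their ranges overlapped. Irf1 was lowest, with 34.6%, 27.0% and 22.1% (27.9 ± 6.33%), and overlapped none of the other 5. These shares depend on the table and the measure, except that Irf7 was highest in all 3 and Irf1 lowest. In the second transcript table Irf2 had 38.3 ± 2.71%, Irf8 37.9 ± 3.53% and Irf1 16.5 ± 3.2%, while Irf7, Irf3 and Irf9 had 81.7 ± 1.32%, 71.9 ± 3.22% and 56.0 ± 5.59%. By estimated counts Irf2, at 66.0 ± 5.57%, came before Irf3, at 62.3 ± 6.4%, and Irf1 had 14.1 ± 5.04%.

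The retained-intron transcripts differed in how much unspliced sequence they hold. Irf7-213 is a single exon of 3240 bases that spans all 9 introns of the gene, and it had 14.3, 7.98 and 4.91 TPM in replicates 1, 2 and 3. Irf7-210, at 24.3, 10.5 and 10.7 TPM, is spliced except for the 69-base intron 5 printed above, which makes up 3.59% of its 1922 bases. Reads over most of Irf7-210 are shared with coding transcripts, and only those few bases lie in no coding exon. It differs by more from the leading coding transcript, Irf7-203 at 5.94 TPM. Irf7-203 is spliced between bases 1757 and 1922 from the gene's start, where Irf7-210 is continuous. The counts of Irf7-210, 593, 317 and 311, carried assignment SDs of 29.82, 19.14 and 19.57.

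In Irf3, intron 5 printed above lies whole in Irf3-205, Irf3-207 and Irf3-209, whose mean TPM was 1.37, 8.12 and 8.05. Irf3-207 had 16.6, 3.93 and 3.81 TPM in replicates 1, 2 and 3, where Irf3-209 had 3.15, 12.2 and 8.76 TPM, so a different transcript of this pair led in replicate 1 than in the other libraries. The leading Irf3 transcript, Irf3-210 at 22.2 ± 3.69 TPM, holds part of intron 6. In Irf9, Irf9-206 holds introns 6 to 9 whole, with 8.09, 6.48 and 4.89 TPM, and Irf9-204 holds part of intron 2, with 9.23, 11.2 and 6.7 TPM. Against the coding Irf9-202, at 6.99, 6.49 and 6.29 TPM, Irf9-204 was higher in all 3 libraries and Irf9-206 in replicate 1 alone.

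Irf8 and Irf2 each had a long transcript made mostly of intron sequence. Irf8-207 runs from the first exon through the second into intron 2, with 93.5% of its 3469 bases in no exon of a coding transcript, and it had 48.8, 56.8 and 36.5 TPM in replicates 1, 2 and 3 (47.4 ± 10.2). The full coding transcript Irf8-201 had 50.3, 41.1 and 38.0 TPM (43.1 ± 6.37), so the 2 did not differ beyond their spread. Irf8-202, which holds part of intron 3, had 25.4 ± 10.9 TPM. Irf2-207 is a single exon of 3965 bases, 97.0% of them outside coding exons, at 16.8, 22.2 and 19.3 TPM, while the leading Irf2-211, at 40.3 ± 3.22 TPM, is only 397 bases long and has 15.9% of them outside coding exons. By estimated counts Irf2-207 led instead, with 897, 1482 and 1237, against 120, 110 and 120 for Irf2-211.

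**Figure D4:**
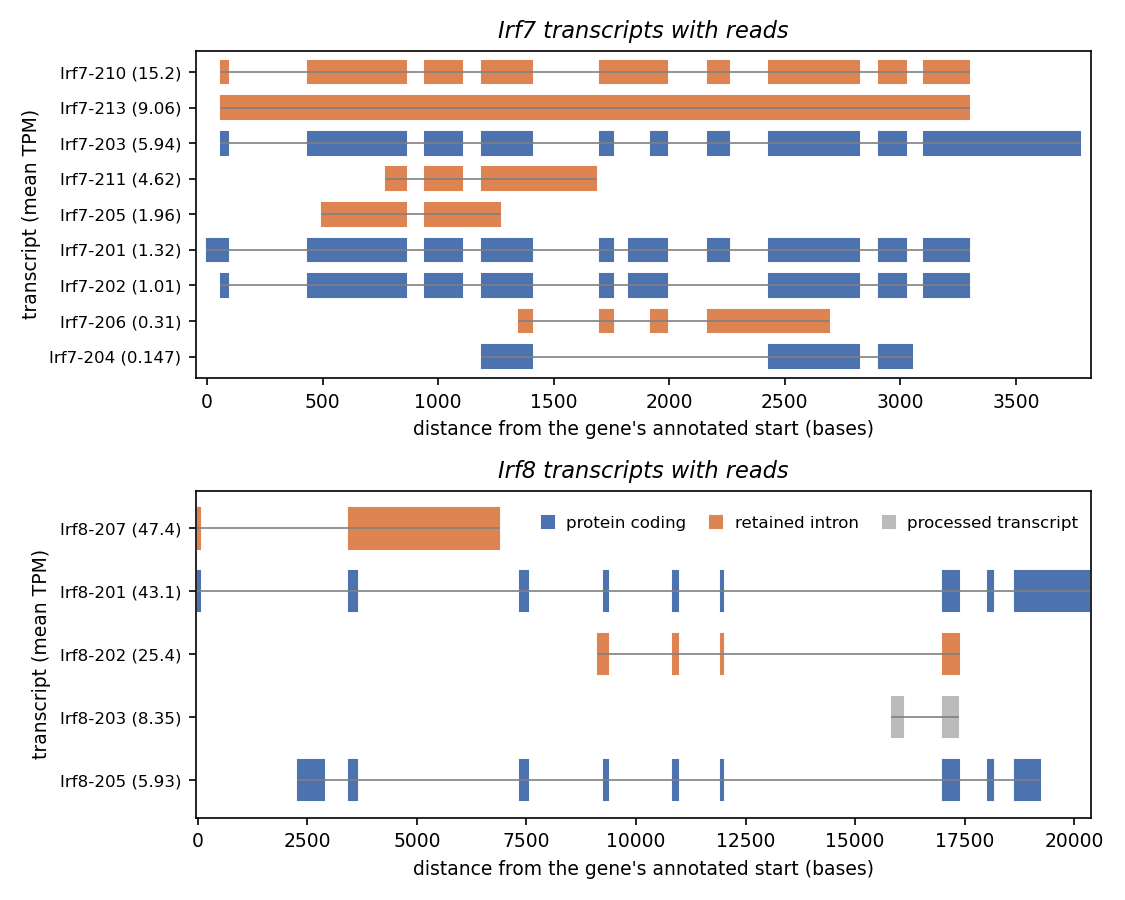
Exons (blocks) and introns (lines) of the Irf7 and Irf8 transcripts with reads, as distance in bases from the gene's annotated start, coloured by annotated type and ordered by mean TPM, which stands beside each name. Irf7-213 (9.06 TPM) is a single block across all introns and Irf7-210 (15.2 TPM) fills 1 short gap, while Irf8-207 (47.4 TPM) is mostly a block after the second exon.

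A second quantification of the same reads gave the same 2 highest genes and differed most for Irf5. Summed over transcripts, the second table gave Irf5 112 ± 24.3 TPM, against 35.7 ± 8.64 TPM in the gene table, a ratio of 3.13 where the median over detected protein-coding genes was 1.28. In the second table a pair of short coding transcripts, Irf5-203 of 350 bases at 34.8 ± 7.07 TPM and Irf5-204 of 402 bases at 32.3 ± 13.2 TPM, led Irf5, and in the first transcript table they had 0 and 0.197 TPM. The long coding transcripts Irf5-201 and Irf5-202 had 12.0 and 27.5 TPM in the second table and 23.0 and 12.3 TPM in the first. The level of Irf5 relative to the other genes is therefore uncertain between the tables.

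Irf7 stood at the other extreme, with 28.5 TPM in the second table against 39.5 TPM and a ratio of 0.721, lower than in all but 1.33% of detected protein-coding genes. Irf9 and Irf3 had ratios of 0.848 and 0.862, and Irf1, Irf2 and Irf8 had 1.35, 1.34 and 1.57. Irf8, at 204 TPM, and Irf2, at 162 TPM, were the highest of the 8 in both tables, with Irf5 next in the second table and Irf3 next in the gene table. The short processed transcript Irf8-203 led Irf8 in the second table, at 56.2 ± 6.69 TPM, where the first table gave it 8.35 ± 1.98 TPM.

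**Figure D5:**
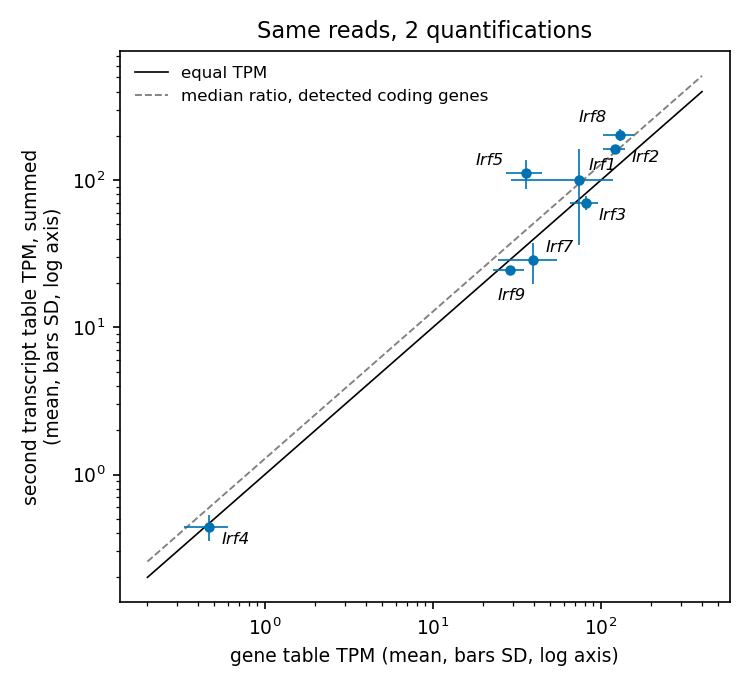
Mean TPM of the 8 IRF genes in the second transcript table, summed per gene, against the gene table (log axes, bars show the SD over 3 libraries), with lines for equal TPM and for the median ratio of 1.28. Irf5 lies well above the lines at 112 against 35.7 TPM, and Irf7 lies below them at 28.5 against 39.5 TPM.

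RNA of the genes that act with the IRF proteins was nearly all present on chromatin, beside 24.4% of all annotated genes, non-coding types included. All 15 listed adaptors and kinases upstream of the IRF proteins were detected (median 14.2 ± 3.79 TPM). That median was near the 11.7 ± 2.17 TPM of detected protein-coding genes. Ikbke, a kinase of Irf3 and Irf7, was highest at 384, 272 and 268 TPM in replicates 1, 2 and 3 (308 ± 65.9) and above each of the 8 IRF genes in every library. Tbk1, its relative, had 114 ± 18.7 TPM, and Tmem173, which encodes the DNA-sensing adaptor STING, was lowest at 4.57 ± 2.24 TPM.

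Of 15 DNA-binding partners and cofactors 14 were detected (median over all 15, 14.0 ± 3.18 TPM). Stat2, a partner of Irf9, led at 164 ± 63 TPM, and Irf9 was below it in every library. Spib, a lymphoid relative of PU.1, was lowest at 0.0133 TPM. The 7 interferon receptor and JAK genes were all detected (median 38.8 ± 9.61 TPM), with Tyk2 at 52.0 ± 16.3, Ifnar2 at 47.8 ± 15.7 and Jak2 at 10.2 ± 2.53 TPM. Of the listed regulators of IRF protein turnover, Rbck1 was detected at 45.6 ± 18.2 TPM and Trim21 at 26.5 ± 4.67 TPM.

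Known target genes of the family were more mixed. Of 19 listed targets 13 were detected. The median over all 19, undetected ones included, was 4.44 ± 2.16 TPM. Among the 13 detected targets the middle gene by mean TPM had 13.1 ± 4.35 TPM, near the median of 11.7 ± 2.17 TPM of detected protein-coding genes. Mx1, of the Mx family of GTPases, had 168, 73.2 and 84.0 TPM in replicates 1, 2 and 3 (108 ± 51.9), with replicate 1 apart as for Irf1 and Irf7. Cybb, a subunit of the phagocyte oxidase and a target of Irf8 with PU.1, had 45.5 ± 14.6 TPM. The interferon genes Ifnb1 and Ifna4, and Il12a, were at 0 counts in all 3 libraries, a count that allows up to 3 counts, or 0.191, 0.187 and 0.209 CPM.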

How the data were processed

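For each of the 3 libraries the authors deposited a gene table and 2 transcript tables. Per the file headers, the gene table and the first transcript table hold an expected count and a TPM with a standard deviation of read assignment, in the columns that RSEM writes, and the second transcript table holds an estimated count and a TPM, in the columns that kallisto writes. Per the deposited readme files the genome was mm10 with the GENCODE M21 annotation. No source used here gives program versions or says whether strand was used. TPM is relative to all listed RNAs, so it also depends on the most abundant ones.

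Rows that name no annotated gene were left out (81881 rows, 55536 annotated genes). Detection required at least 1 TPM in each of the 3 libraries. Expected counts were rounded to whole numbers and scaled by TMM in edgeR 4.0.16 (R 4.3.3), with DESeq2 1.42.0 size factors as an alternative, and ratios between libraries used a prior of 0.5 CPM and 1.5-fold as threshold. The ratio calculation was tested on simulated data. Neighbour differences used a 2-sided exact sign-flip permutation test. Depth was 15698066, 16005795 and 14386725 counts, and intervals cover counting error only. Promoter sequences are RefSeq's for GRCm38.p6, and intron sequences come from the GENCODE M21 transcripts.

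All 8 genes are named with their values, then the highest 2 and the lowest 1 of each listed pathway group and genes within 5 kb of an IRF gene. The IRF genes and the lists were chosen with earlier results of these data known. Values of some genes that this rule selects are not reported here. A planned comparison of IRF protein sequences was not made.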

Additional observations from a re-analysis of the deposited data

How the results depend on the processing

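The 7 detected genes, and Irf4 below the threshold, were the same at TPM thresholds of 0.5 and 5, in the second transcript table and without each replicate. The median of log2(TPM + 1) over the 8 genes, 5.62, became 6.26 in the second transcript table and 6.19 with CPM in place of TPM. Irf3 minus Irf1 turned from 0.28 to -0.34 in the second table and to -0.45 with CPM. Irf7 minus Irf5 turned from 0.11 to -1.95 and -0.03, so the order within these pairs is not set by the data. Irf3 also went from above Irf7, Irf5 and Irf9 in TPM to below them in scaled CPM, as given above. Genes lower by 1.5-fold in replicate 2 numbered 1 in the scaled counts, 0 with library totals, and 0 to 2 when set against a single other library. For replicate 3 the number was 0, then 1 in the second table and 0 to 2 against a single library, where the higher figure was without replicate 2 and rests on Irf1 and Irf7 in replicate 1. The median retained-intron share of 60.6% became 47.7% in the second table, where all detected coding genes had 44.3 ± 1.64%, and 57.7% by counts, where they had 29.9 ± 1.64%. Mean TPM also moved beyond its SD in the second table for Irf8, Irf2 and Irf5, as given above. The causes were not tested. Of the other recomputed values, 117 kept their direction or stayed within the spread or within 1.5 times, though neighbour differences among them changed in size, as given above. The number of genes led by a transcript that is not protein coding is also among the 117. It went from 6 to 4 in the second table, while the share of detected protein-coding genes led in this way went from 36.3% to 49.2%. Of the limits, the sign-flip test cannot go below 0.25 with 3 libraries, Irf4 rests on 27 to 40 counts, and assignment between overlapping transcripts limits the rest.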

Other observations

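Reads were counted to genes that overlap or neighbour the IRF genes at several of the loci. Without stated strand use, these values do not show that an opposite-strand gene was itself transcribed. Whether reads of unspliced IRF gene RNA were counted to genes lying inside an IRF gene was not tested. Inside Irf2, on the opposite strand, Gm45479 had 40.5, 39.3 and 27.3 TPM in replicates 1, 2 and 3 (35.7 ± 7.32), Gm45481 had 16.7 ± 3.78 TPM and Gm31172 had 5.79 ± 1.88 TPM. Gm16675, a divergent non-coding gene 216 bases from Irf2, had 2.38 ± 0.461 TPM. Tnpo3, a nuclear import receptor gene that shares 1045 bases with Irf5 on the opposite strand, had 50.9 ± 5.67 TPM. Tnpo3 and Irf5 had the same read-assignment SDs, 2.31, 1.16 and 1.51 in replicates 1, 2 and 3, so a few reads were open between these opposite strands. Phrf1 shares 45 bases with Irf7 on the opposite strand and had 41.0 ± 5.32 TPM, with 44.4, 43.7 and 34.8 TPM in replicates 1, 2 and 3, so its replicate 1 did not stand apart as that of Irf7 did. Bcl2l12 shares 1065 bases with Irf3 on the opposite strand and had 5.89 ± 2.67 TPM, and Scaf1, 99 bases from Irf3, had 36.4 ± 8.7 TPM. Rnf31, a subunit of the linear ubiquitin ligase that shares 123 bases with Irf9 on the same strand, had 33.6 ± 13.4 TPM. Cdhr5, 2601 bases from Irf7, was at 0 in all 3 libraries.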
